A study of Homo sapiens with 4 samples.

Results

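The transcripts described here belong to a list of 40 genes of the amino acid stress response that the transcription factor ATF4 directs, read in cells labelled A549, an established line of human lung adenocarcinoma. The genes were chosen with results of these same arrays known, namely their values after each strand of *miR-486* against mock cells, so their values are a description and none of them was tested. Probes were matched to 22439 genes in all, and 39 of the 40 listed genes were among them, with 46 probes; *ADM2* had no matched probe. Total RNA was labelled with Cy3 and hybridized to 4 Agilent arrays, each of which reads 1 sample in 1 color. The groups were 1 array of cells transfected with *miR-486-5p*, the guide strand of the precursor, 1 array of cells transfected with *miR-486-3p*, its passenger strand, and 2 mock arrays of cells that received the reagent Lipofectamine RNAiMAX without a miRNA. The strands are called 5p and 3p from here on. All cells grew in RPMI medium, and the labels used here give neither the dose nor the time of harvest.

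The 4 arrays shared 1 slide and 1 scan, and the scanner software called between 52.7% and 54.2% of the 58201 probes on an array well above background. A level is given here as the log2 signal of a probe minus the 75th percentile of its array, so that 0 is the signal of that percentile. A log2 difference sets the level on a transfected array against the average of the mock pair, averaged over the probes in use for the gene, and 0.5 in either direction was taken as the limit for counting. Both strands were set against the same 2 mock arrays, so the differences for the strands share these controls and are only given side by side. Each strand has 1 array and no replicate of its own, and so few arrays limit how precise any value can be. In RNA of a whole culture, fewer cells that express a gene and less of its RNA per cell cannot be told apart.

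When amino acids run short or unfolded proteins fill the endoplasmic reticulum, kinases phosphorylate the initiation factor eIF2, which lowers translation in general but raises that of the ATF4 mRNA. ATF4 pairs with C/EBP proteins and binds amino acid response elements in genes for amino acid uptake and synthesis, tRNA charging and redox balance, while its targets DDIT3, TRIB3 and PPP1R15A feed back on the response. Lung cancer cells are known to draw on this program for serine, glycine and asparagine.

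The cell label was checked against known markers. *KRT7*, *KRT8* and *KRT18*, keratins of simple epithelium, were well above background on all 4 arrays, whereas *CDH1*, the epithelial cadherin, was not well above background on any. The summed signal of these epithelial genes, relative to the 75th percentile, was 229.8 and 227.9 on the mock arrays, and lower, at 170.5 and 172.8, after the 5p and 3p strands. A single probe of *KRT18* gave most of that sum and had log2 differences of −0.58 and −0.42, beside −0.55 and −0.40 for its other probe. *KRT7* had log2 differences of 0.15 and −0.22. Of the 3 probes of *KRT8*, 1 was higher after each strand, by log2 differences of 1.62 and 0.60. The others were lower, at −0.69 and −1.07 after the 5p strand and at −1.39 and −2.13 after the 3p strand. *CDKN2A*, a gene known to be deleted in A549, was well above background on all 4 arrays, with levels of 6.03 and 5.98 on the mock arrays, 5.56 after the 5p strand and 3.89 after the 3p strand for 1 of its probes. *AKR1B10*, a target of NRF2 known to be high in A549, was not well above background on either mock array or after the 5p strand, and 1 of its 2 probes was so after the 3p strand. The data thus go against the label in part, and the cells are called by it only because the samples carry it. Among markers of other cell types, 2 of 2 matched leukocyte genes, 2 of 3 endothelial genes and 1 of 3 fibroblast genes had a probe well above background on all 4 arrays. The summed signal of the leukocyte genes, relative to the 75th percentile, was 0.602 on both mock arrays, 0.783 after the 5p strand and 0.773 after the 3p strand. The sums were 0.603 and 0.561 on the mock arrays, 0.644 and 0.593 after the strands for the endothelial genes, and 0.157 and 0.166, then 0.143 and 0.159, for the fibroblast genes. *PTPRC* gave most of the leukocyte sum on each array, *PDGFRB* most of the fibroblast sum, and *CDH5* and *VWF* most of the endothelial sum. *PECAM1* and *COL3A1*, defining markers of endothelium and fibroblasts, were not well above background on any array. The part of the epithelial and other markers in the differences below was not tested.

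The letters TGATGNAA, a core of the amino acid response element, were searched on both strands of the RefSeq promoters of build GRCh38.p14, each reaching from 250 bases before to 50 bases after a gene's start. They occurred in 1270 of all 35116 promoters (3.62%) and in 10 of the 53 promoters of listed genes (18.9%). Counted by gene, the letters were in 10 of the 33 listed genes found in the promoter table (30.3%), beside 4.46% of all 27305 genes there. In the related lists described at the end, the share of genes was 43.8% for tRNA synthetases, 23.1% for other amino acid enzymes, 7.69% for eIF2 signalling, 7.14% for other amino acid transporters, 6.67% for other ATF4 targets and 5.26% for chaperones of the endoplasmic reticulum. The listed genes with the letters were *SLC1A4*, *ASNS*, *SLC3A2*, *SLC38A1*, *SLC7A1*, *JDP2*, *CHAC1*, *CEBPG*, *SLC1A5* and *FGF21*. *PSPH*, *NUPR1*, *PYCR1*, *ALDH1L2*, *GPT2*, *INHBE* and *EIF4EBP1* had no entry in that table. A match is a description of the letters and shows neither binding nor use. For 5 of the genes of which the match lay upstream of a start, the stretch around it is printed 5′ to 3′ on the strand that holds it, with the matched letters in capitals, as examples of the match among genes whose values are given further on.
ASNS: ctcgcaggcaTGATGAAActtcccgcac
CHAC1: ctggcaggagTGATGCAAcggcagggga
JDP2: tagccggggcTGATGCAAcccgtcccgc
CEBPG: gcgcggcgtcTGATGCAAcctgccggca
SLC1A5: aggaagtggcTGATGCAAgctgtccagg

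The stretch of *ASNS* is chr7:97872459-97872486 on the minus strand, with the match starting at base −68 from the start of the gene. That of *CHAC1* is chr15:40953252-40953279 on the minus strand, opposite to the gene, at base −209. The other stretches are chr14:75427996-75428023 on the plus strand for *JDP2* at base −16, chr19:33374061-33374088 on the plus strand for *CEBPG* at base −42, and chr19:46784894-46784921 on the minus strand for *SLC1A5* at base −97. After the 5p strand, the median log2 difference was −0.55 over the 9 genes with a match and a value and −0.34 over the 22 genes without a match. These medians were −1.38 and −0.85 after the 3p strand. The ranges of both sets overlapped after each strand, and no test was made.

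After the 5p strand, 38 of the 40 genes had a value, of which 16 lay below −0.5, 2 above 0.5 and 20 between these limits. Over all genes with a value, 15.9% of 16024 lay below −0.5 and 13.8% above 0.5. Of the 38 listed genes with a value after the 3p strand, 25 lay below −0.5, 3 above 0.5 and 10 between. Here 27.2% of all 16446 genes lay below −0.5 and 30.4% above 0.5. Because the list was chosen on these same contrasts, the shares over all genes are given beside its counts and nothing is read from them. Between the mock arrays themselves, 1.88% of 15558 genes differed by more than 0.5 in either direction. The 37 listed genes that could be read on both mock arrays differed between them by −0.20 to 0.24, so none of them passed the limit there. With arrays scaled to their medians instead of the 75th percentile, the median of all genes shifted by −0.37 after the 3p strand, where higher genes went from 52.8% to 29.9% of those past the limit, and by −0.076 after the 5p strand, where they went from 46.5% to 36.3%. That scaling put 19 listed genes below −0.5 and 1 above 0.5 after the 5p strand, beside 3067 and 1748 of all 16024 genes. *SLC7A5* (−0.54), *ASNS* (−0.54) and *SLC38A2* (−0.51) were then past the lower limit. After the 3p strand it put 29 listed genes below and 2 above, beside 6866 and 2932 of all 16446 genes.

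The median log2 difference of the listed genes was −0.39 after the 5p strand, beside 0.030 over all genes, and −0.93 after the 3p strand, beside 0.058 over all genes. The transfected array lay below both mock arrays for 29 genes and above both for 7 after the 5p strand. It lay below both for 30 genes and above both for 5 after the 3p strand. The mock arrays of the listed genes differed by a median of 0.054 in either direction, so small differences enter these counts. The share over all genes is not reported here, and nothing is read from these counts. Values ran from −1.95 for *STC2* to 0.84 for *PPP1R15A* after the 5p strand, and from −4.92 for *SLC6A9* to 1.88 for *EIF2AK3* after the 3p strand. With normexp, another background correction, they ran from −1.24 for *JDP2* to 0.61 for *DDIT3* and from −3.53 for *SLC7A5* to 0.91 for *EIF2AK3*. Nearest the lower limit after the 5p strand were *SLC7A6* at −0.50, just past it but at −0.40 with mock 1 as the sole control, and *SLC7A5* at −0.47, just within it. After the 3p strand, *ATF4* at −0.58 was the nearest gene past the lower limit and *SLC7A6* at −0.47 the nearest within it. At the upper limit, *DDIT3* at 0.57 was just past it and *SLC43A1* at 0.44 just within it after the 5p strand, and *SLC43A1* at 0.80 and *ALDH18A1* at 0.37 after the 3p strand. All probes in use were well above background on the arrays compared for 37 of the 38 genes after the 5p strand and for 35 after the 3p strand. *FGF21*, a circulating hormone, was not well above background on any array.

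**Figure D1:**
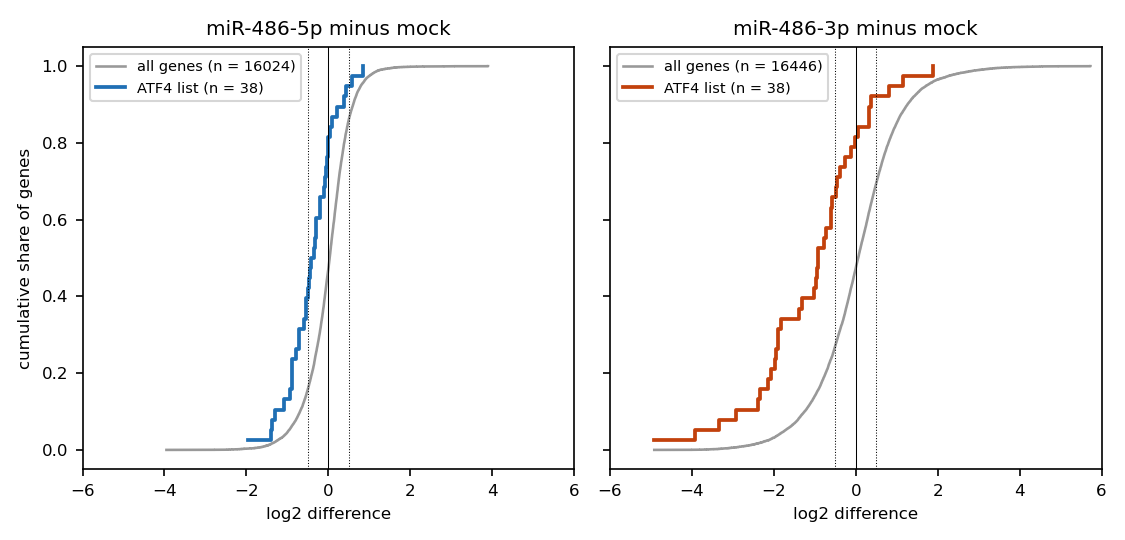
Cumulative share of genes (vertical axis, 0 to 1) by log2 difference from the mock mean (horizontal axis), after the 5p strand on the left and the 3p strand on the right; gray lines stand for all genes with a value (16024 and 16446), colored steps for the 38 listed genes with a value, and dotted lines mark −0.5 and 0.5. The list's steps have medians of −0.39 and −0.93 and the gray lines medians of 0.030 and 0.058; the list was chosen on these contrasts.

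The list holds 8 transcription factors and regulators of transcription. After the 5p strand, 5 of them were below −0.5 and 1 above 0.5, with a median of −0.81, and after the 3p strand 7 were below −0.5, with a median of −0.95. The level of *ATF4* itself was 7.98 and 7.93 on the mock arrays, 7.05 after the 5p strand and 7.37 after the 3p strand. Both transfected arrays lay below both mock arrays, with log2 differences of −0.90 and −0.58, or 53.7% and 66.8% of the mock signal. Over the alternative settings, the latter ran from −0.96 with median scaling to −0.31 with normexp, and quantile normalization (−0.31) and the authors' values (−0.34) also put it within the limit. *ATF5*, a close relative of ATF4 under the same translational control, had levels of 0.48 and 0.44 in mock cells, −0.25 after the 5p strand and −0.84 after the 3p strand. It too was lower on both transfected arrays than on either mock array, by log2 differences of −0.71 and −1.30, which were −0.46 and −0.83 with normexp.

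*CEBPB* and *CEBPG* encode partners with which ATF4 pairs. Levels of *CEBPB* were 4.10 and 4.06 on the mock arrays, 3.76 after the 5p strand and 3.12 after the 3p strand, which gave log2 differences of −0.32 and −0.96. For *CEBPG*, whose promoter match is printed above, the mock arrays read 4.73 and 4.60, the 5p array 3.73 and the 3p array 4.06. Both genes lay under both mock arrays after each strand, and the log2 differences of *CEBPG* were −0.93 and −0.60, the latter between −0.97 with median scaling and −0.38 with quantile normalization, normexp or the authors' values, which is within the limit. *JDP2*, a repressor of AP-1, read 3.05 and 3.02 in mock cells, 1.63 after the 5p strand and 1.20 after the 3p strand. These log2 differences, −1.40 and −1.83, put it below both mock arrays by more than the limit after either strand. *NUPR1*, a small stress-induced chromatin protein, read −1.16 and −1.22, then −2.26 and −2.12, with log2 differences of −1.07 and −0.93, or −0.39 and −0.40 with normexp.

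*DDIT3*, which encodes the stress factor CHOP, had levels of 2.11 and 2.09 on the mock arrays, 2.67 after the 5p strand and 1.63 after the 3p strand. The 5p array was above and the 3p array below both mock arrays, with log2 differences of 0.57 and −0.47. With median scaling these were 0.50, just within the limit, and −0.84, past it, and with normexp they were 0.61 and −0.29. *TRIB3*, a pseudokinase that restrains ATF4, had levels of 5.32 and 5.29 in mock cells, 5.35 after the 5p strand and 2.98 after the 3p strand. Its log2 difference was 0.043 after the 5p strand, beside 0.033 between the mock arrays, and turned to −0.033 when arrays were scaled to their medians. After the 3p strand it was −2.33, which is 19.9% of the mock signal.

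Among the 5 genes that act on eIF2, on translation or on tRNA, none was below −0.5 and 1 above 0.5 after the 5p strand, and 2 were below and 2 above after the 3p strand. *PPP1R15A* encodes the subunit that brings a phosphatase to eIF2 and so reverses its phosphorylation. Its level was −0.83 and −0.66 on the mock arrays, 0.093 after the 5p strand and 0.41 after the 3p strand. It was above both mock arrays after each strand, with log2 differences of 0.84 and 1.16. *EIF2AK3* encodes PERK, the eIF2 kinase of the endoplasmic reticulum, and read −2.18 and −2.14 in mock cells, −1.77 after the 5p strand and −0.28 after the 3p strand. Both transfected arrays were above both mock arrays, with log2 differences of 0.39 and 1.88; the latter is 368% of the mock signal, and was 0.91 with normexp.

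*EIF2AK4*, which encodes GCN2, the kinase that senses uncharged tRNA, had levels of 3.07 and 3.24 on the mock arrays, 3.14 after the 5p strand and 3.20 after the 3p strand. Neither transfected array lay outside the span of the mock arrays, although the log2 difference after the 3p strand, 0.046, was −0.33 with median scaling and 0.21 with normexp. *EIF4EBP1*, whose product holds back the cap-binding factor eIF4E, read 5.49 and 5.51 in mock cells, 5.29 after the 5p strand and 3.61 after the 3p strand. The log2 differences were −0.21 and −1.89, so the 3p array was at 27.0% of the mock signal. For *XPOT*, the exporter of tRNA from the nucleus, the levels were 2.14 and 2.07, then 1.99 and 1.15, with log2 differences of −0.12 and −0.95.

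**Figure D2:**
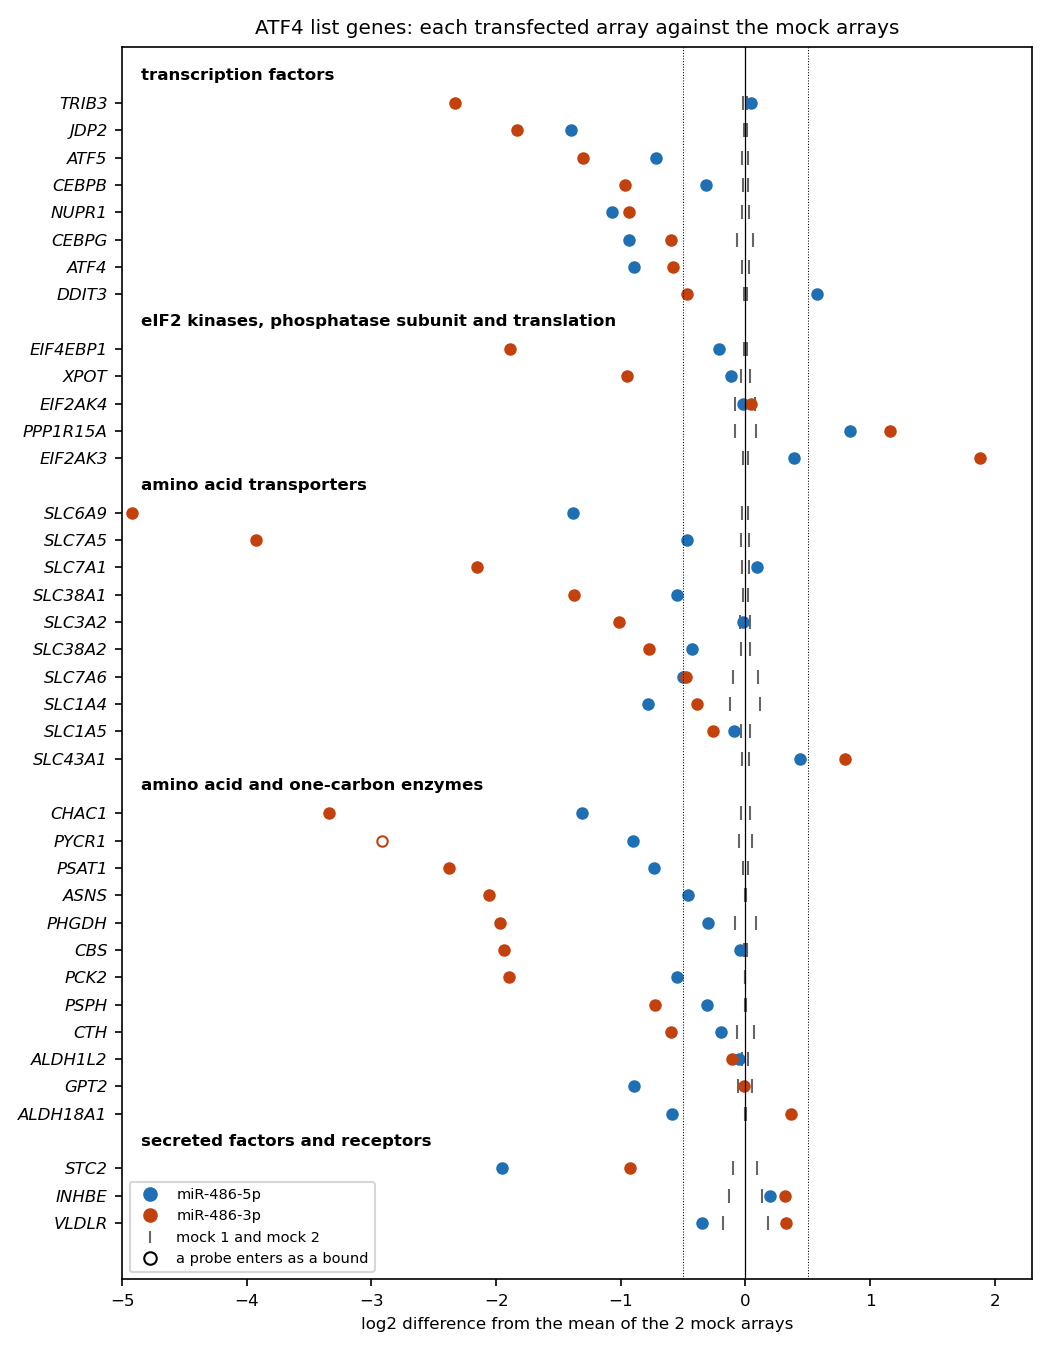
Log2 difference from the mock mean (horizontal axis) for the 38 listed genes with a value, grouped by role (vertical axis), after the 5p strand (blue) and the 3p strand (orange); gray ticks are the mock arrays, dotted lines mark −0.5 and 0.5, and the open point, *PYCR1*, includes a probe that entered as a bound. The points farthest from 0 are *SLC6A9* (−4.92) and *SLC7A5* (−3.92) after the 3p strand and *STC2* (−1.95) after the 5p strand.

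Amino acid transporters make up 10 genes of the list, and all of them had a value. After the 5p strand 4 were below −0.5 and none above 0.5, with a median of −0.45, and after the 3p strand 6 were below and 1 above, with a median of −0.90. *SLC7A5* encodes the light chain of the exchanger that takes up leucine and other large neutral amino acids, and *SLC3A2* the heavy chain that carries it to the membrane. Levels of *SLC7A5* were 4.31 and 4.38 on the mock arrays, 3.88 after the 5p strand and 0.42 after the 3p strand. The 3p array stood far below the other arrays, with a log2 difference of −3.92, or 6.58% of the mock signal, beside −0.47 after the 5p strand. For *SLC3A2* the levels were 2.71 and 2.80 in mock cells, 2.74 after the 5p strand and 1.74 after the 3p strand. Its 5p array lay between the mock arrays (−0.019) and its 3p array below both (−1.02).

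*SLC6A9* encodes a glycine transporter and was read by 1 of its 2 probes, with levels of 1.02 and 1.07 on the mock arrays, −0.34 after the 5p strand and −3.88 after the 3p strand. Both transfected arrays were below both mock arrays, by log2 differences of −1.38 and −4.92, which is 38.4% and 3.31% of the mock signal. The other probe was well above background on mock 1 alone; with mock 1 as the sole control it entered the mean, and the differences of *SLC6A9* became −0.68 and −2.34. With normexp they were −0.95 and −2.06. *SLC7A1*, the carrier of arginine and lysine, read 2.50 and 2.44 in mock cells, 2.56 after the 5p strand and 0.32 after the 3p strand. Here the 5p array was close to mock (0.090) and the 3p array below both mock arrays by a log2 difference of −2.15.

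*SLC38A1* and *SLC38A2*, which take up glutamine and other neutral amino acids with sodium, had 2 probes each. The probes of *SLC38A1* gave log2 differences of −0.56 and −0.54 after the 5p strand and of −1.46 and −1.30 after the 3p strand. Those of *SLC38A2* gave −0.44 and −0.42, then −0.73 and −0.82, and with normexp the mean of the latter was −0.51. The paired probes thus differed by less than 0.5 from each other, and every one lay below both mock arrays after each strand. *SLC1A4* encodes an exchanger of alanine, serine and cysteine and read −1.87 and −2.10 on the mock arrays, −2.77 after the 5p strand and −2.37 after the 3p strand. It was below both mock arrays after each strand, with log2 differences of −0.78 and −0.38, the latter at −0.50 with mock 1 as the sole control, −0.76 with median scaling and −0.21 with normexp. For *SLC1A5*, the related exchanger that takes up glutamine, the log2 differences were −0.089 and −0.26, and median scaling put the latter at −0.63. *SLC7A6*, an exchanger of cationic for neutral amino acids, had log2 differences of −0.50 and −0.47. The latter passed the limit with mock 2 as the sole control (−0.58), median scaling (−0.85), quantile normalization (−0.81) and the authors' values, and with normexp the differences were −0.16 and −0.19.

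*SLC43A1*, a carrier of large neutral amino acids, was the transporter that was higher after the 3p strand. It read −2.38 and −2.33 on the mock arrays, −1.92 after the 5p strand and −1.55 after the 3p strand. Both transfected arrays were above both mock arrays, with log2 differences of 0.44 and 0.80, of which the latter was 0.43 with median scaling and 0.26 with normexp.

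The 12 enzymes of amino acid and one-carbon metabolism all had a value. After the 5p strand, 6 were below −0.5 and none above 0.5, with a median of −0.50. Every enzyme lay below both mock arrays, some by little. *CBS* did so at −0.042, beside 0.021 between its mock arrays, and *ALDH1L2* at −0.054, beside −0.050. After the 3p strand, 9 were below −0.5 and none above 0.5, with a median of −1.92. *ASNS*, asparagine synthetase, the usual reporter of this pathway, had levels of 7.35 and 7.35 on the mock arrays, 6.89 after the 5p strand and 5.29 after the 3p strand. Its log2 differences were −0.46 and −2.06, or 72.7% and 24.0% of the mock signal, with both transfected arrays below both mock arrays.

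*PHGDH*, *PSAT1* and *PSPH* encode the enzymes of serine synthesis in the order of the pathway. *PHGDH* read 3.00 and 3.17 on the mock arrays, 2.79 after the 5p strand and 1.12 after the 3p strand. *PSAT1* read 5.98 and 6.02, then 5.27 and 3.62 after the strands in the same order. *PSPH* read 3.90 and 3.90, then 3.59 and 3.17. All of these transfected values were below both mock arrays. The log2 differences after the 5p strand were −0.30 for *PHGDH*, −0.73 for *PSAT1* and −0.31 for *PSPH*, and after the 3p strand they were −1.97, −2.38 and −0.73.

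For proline synthesis, the list holds *ALDH18A1*, which opens the route from glutamate, and *PYCR1*, which closes it. *ALDH18A1* read 1.21 and 1.21 on the mock arrays, 0.62 after the 5p strand and 1.58 after the 3p strand. It was below both mock arrays after the 5p strand (−0.59) and above both after the 3p strand (0.37), the latter turning to −0.0049 with median scaling. *PYCR1* had 2 probes, of which the first read 5.97 and 5.91 in mock cells, 5.00 after the 5p strand and 3.38 after the 3p strand. Its log2 differences were −0.94 and −2.56. The second probe gave −0.86 after the 5p strand and was not well above background on the 3p array, where it was at least 9.64-fold lower than in mock cells. With that bound, the mean log2 difference of *PYCR1* after the 3p strand was −2.91, and −1.54 with normexp. Such a bound sets the mean of the mock arrays against the lowest signal that counted as well above background on the dim array, or the probe's own signal where that is higher.

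*CHAC1*, which breaks down glutathione, had 2 probes that both gave a log2 difference of −1.31 after the 5p strand and −3.58 and −3.10 after the 3p strand. The first of them read 0.10 and 0.25 on the mock arrays, −1.14 after the 5p strand and −3.41 after the 3p strand. As the mean of its probes, *CHAC1* was at 40.2% of the mock signal after the 5p strand and at 9.86% after the 3p strand, with both transfected arrays below both mock arrays for either probe, and with normexp its mean log2 difference was −2.07 after the 3p strand instead of −3.34. *PCK2*, the mitochondrial enzyme that makes phosphoenolpyruvate, had probes that differed after the 5p strand, at −0.88 and −0.21, and lay close together after the 3p strand, at −1.86 and −1.94. Its mean after the strands was −0.55 and −1.90, against −0.28 and −0.67 with normexp.

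*CBS* and *CTH* encode the successive steps from homocysteine to cysteine. *CBS* read 6.45 and 6.43 on the mock arrays, 6.40 after the 5p strand and 4.51 after the 3p strand. *CTH* read 2.00 and 1.87, then 1.74 and 1.33. After the 3p strand both were below both mock arrays by log2 differences of −1.94 and −0.60, whereas after the 5p strand they were within the limit, at −0.042 and −0.20. With normexp, the difference of *CBS* after the 5p strand turned to 0.013. *GPT2*, which makes alanine from pyruvate, showed the other order, with levels of 1.72 and 1.61 in mock cells, 0.77 after the 5p strand and 1.66 after the 3p strand. Its 5p array was below both mock arrays (−0.90) and its 3p array between them (−0.0077, but −0.38 with median scaling and 0.19 with normexp). *ALDH1L2*, a mitochondrial folate enzyme, had log2 differences of −0.054 and −0.11, the latter −0.48 with median scaling and −0.33 with quantile normalization.

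**Figure D3:**
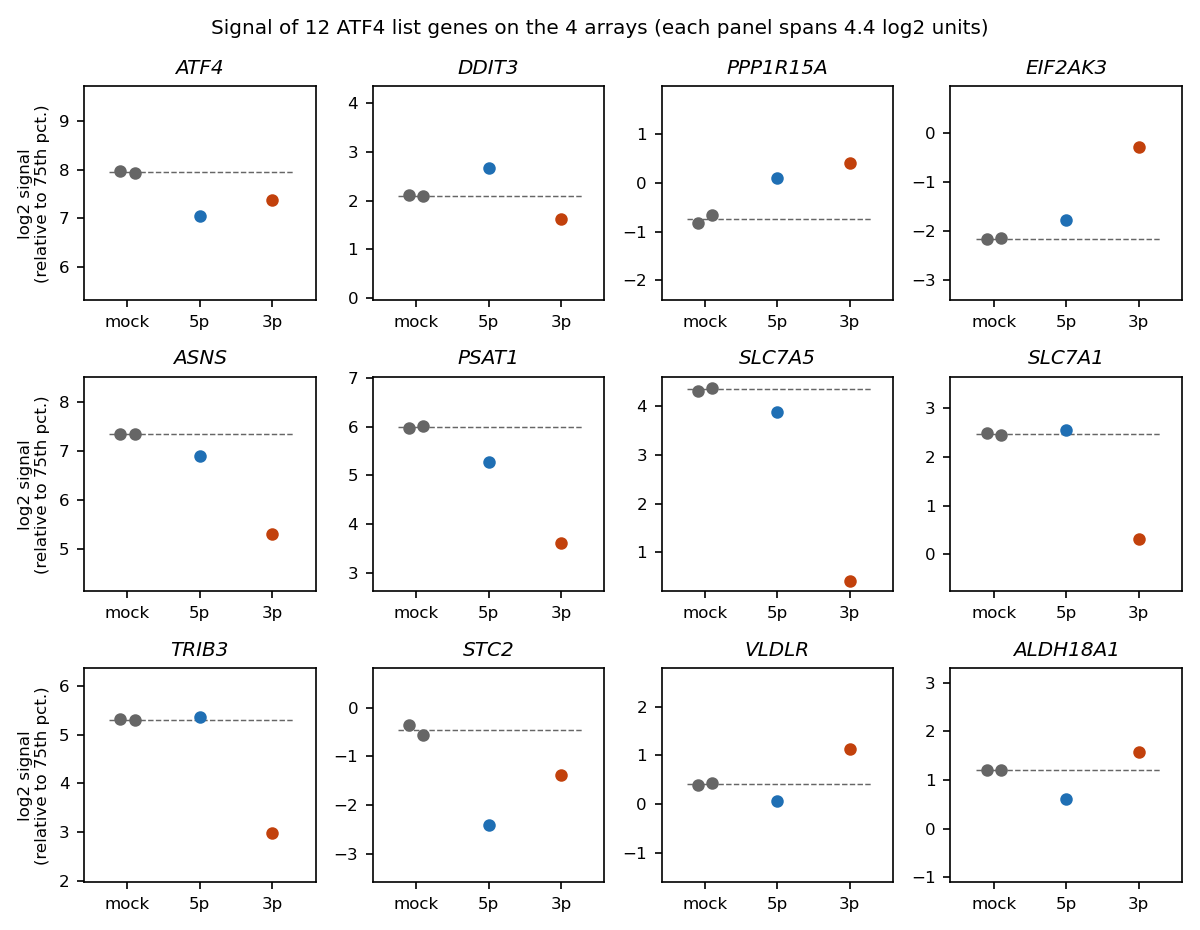
Level of 12 listed genes (log2 signal relative to the 75th percentile of the array, vertical axis) on the mock arrays (gray, 2 points), after the 5p strand (5p, blue) and after the 3p strand (3p, orange); the dashed line is the mock mean, and every panel spans 4.4 log2 units. *SLC7A5* read 4.31 and 4.38 on the mock arrays and 0.42 on the 3p array, *EIF2AK3* read −2.18 and −2.14, then −0.28, and *STC2* read −0.36 and −0.55 on the mock arrays and −2.41 on the 5p array.

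Of the 5 secreted factors and receptors, 3 had a value. *STC2* encodes stanniocalcin, a glycoprotein hormone that ATF4 is known to induce, and read −0.36 and −0.55 on the mock arrays, −2.41 after the 5p strand and −1.38 after the 3p strand. It was below both mock arrays after each strand, with log2 differences of −1.95 and −0.93, which were −0.73 and −0.43 with normexp. *VLDLR*, a lipoprotein receptor, had 1 probe with levels of 0.39 and 0.43 on the mock arrays, 0.059 after the 5p strand and 1.13 after the 3p strand. That probe was below both mock arrays after the 5p strand (−0.35) and above both after the 3p strand (0.72). A second probe, in use after the 3p strand alone, gave −0.060, which made the mean of *VLDLR* 0.33, and −0.045 with median scaling. With mock 1 as the sole control the differences of *VLDLR* were −0.61 and 0.15, and with mock 2 as the sole control the latter was 0.51. Without a filter on dim probes the former was −0.93. *INHBE*, a subunit of activins, was not well above background on mock 1, and its log2 differences were 0.20 and 0.31. With either mock array as the sole control they were 0.065 or 0.33 after the 5p strand and 0.18 or 0.45 after the 3p strand, and the latter turned to −0.060 with median scaling, −0.11 with quantile normalization or the authors' values and −0.018 with normexp.

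Genes of the same pathway outside the list were taken in 6 lists and tested with limma over all genes of the arrays, at a Benjamini-Hochberg adjusted p of 0.05. These lists too were chosen with earlier results of the arrays known, so their calls are no independent evidence of a direction. The methods' t-test, run as an alternative, called 0 of them in every list. Over all 16662 genes tested, limma called 6.66% lower and 3.58% higher after the 5p strand, and 31.6% lower and 31.9% higher after the 3p strand. The test rests on 1 residual degree of freedom, the gap between the mock arrays, and its p-values measure only that spread, which may be technical since nothing states that the mock arrays came from separate cultures. Of 18 other targets of ATF4, 16 were tested, of which 4 fell and 4 rose after the 5p strand, and 6 fell and 6 rose after the 3p strand. Over the other limma settings, the fallen and risen each numbered 0 to 7 after the 5p strand, and 6 to 8 fell and 6 to 7 rose after the 3p strand. *DDIT4*, an inhibitor of mTORC1, fell by 3.06 on the log2 scale after the 5p strand (limma SE of 0.088, adjusted p of 0.0475) and by 1.45 after the 3p strand (adjusted p of 0.00845). *GDF15*, a stress hormone, read 3.44 and 3.39 in mock cells and fell to 1.93 after the 5p strand and 2.40 after the 3p strand (limma adjusted p of 0.0475 and 0.0118). *BBC3*, which promotes cell death, fell by 1.04 and 0.74 on the log2 scale after the strands. *HSPA9*, a mitochondrial chaperone, fell by 1.54 and *CREBRF* rose, with a log2 difference of 2.32, after the 3p strand. *SESN2*, an inhibitor of mTORC1 that senses leucine, read 0.56 and 0.53 in mock cells and 0.99 after the 5p strand, which did not pass limma (adjusted p of 0.0785), and fell to −1.62 after the 3p strand (adjusted p of 0.00762). *SQSTM1* and *MAP1LC3B*, which serve autophagy, rose after each strand. Their log2 differences were 0.85 and 0.86 after the 5p strand and 0.84 and 0.73 after the 3p strand. Those of *MAP1LC3B* are means of 2 probes that differed, at 0.57 and 1.14 after the 5p strand and at 0.33 and 1.13 after the 3p strand.

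Of the 19 tRNA synthetases tested, 12 fell and 1, *RARS1*, rose after the 3p strand (9 to 14 and 0 to 5 over the other limma settings), with a median log2 difference of −0.64, or −0.40 with normexp. *AARS1*, which charges alanine tRNA, read 1.88 and 2.00 on the mock arrays, 2.25 after the 5p strand and −1.73 after the 3p strand, a log2 difference of −3.67 there with a limma SE of 0.11 and an adjusted p of 0.00762. *SARS1* and *VARS1*, for serine and valine, fell by 1.72 and 1.08 on the log2 scale, the former as the mean of 2 probes at −2.68 and −0.76. After the 5p strand, limma called 0 of the synthetases, with 6 at an unadjusted p under 0.05 and 7 by the methods' t-test, and 0 to 5 in each direction over the other limma settings. Among those with all probes above background and outside both mock arrays, the log2 differences farthest from 0 were 0.57 for *WARS1*, −0.46 for *KARS1* and 0.37 for *HARS1*, none of which passed limma. Among 19 other amino acid enzymes tested, 3 fell and 2 rose after the 5p strand, and 12 fell and 3 rose after the 3p strand. The other limma settings gave 0 to 8 and 0 to 6 after the 5p strand and 10 to 13 and 3 to 5 after the 3p strand. *MTHFD1*, a folate enzyme, fell by 1.99 on the log2 scale after the 3p strand, and *ASS1*, which makes argininosuccinate, rose with a log2 difference of 4.19. *SHMT1*, an enzyme of one-carbon metabolism, fell by 0.97 on the log2 scale after the 5p strand. Of 16 other amino acid transporters tested, limma called 0 after the 5p strand, with 8 at an unadjusted p under 0.05 and 4 by the methods' t-test, and 0 to 4 in each direction over the other limma settings. Under the same condition on probes, the values farthest from 0 were log2 differences of 0.65 for *SLC36A1*, −0.62 for *SLC7A2* and −0.56 for *SLC43A2*. After the 3p strand, 7 fell and 5 rose (6 to 8 and 3 to 6 over the other settings), *SLC6A15* being in both counts because its probes went opposite ways. All 3 probes of *SLC6A15* entered there as bounds, being dim on 1 side of the comparison, so its calls rest on values near background. *SLC25A13*, a mitochondrial aspartate carrier, and *SLC43A2* fell by 2.00 and 1.57 on the log2 scale, and *SLC7A7* rose with a log2 difference of 1.71.

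For 14 further genes of eIF2 signalling, limma called 0 after the 5p strand, with 1 at an unadjusted p under 0.05 and 2 by the methods' t-test, and 0 to 1 in each direction over the other limma settings. It called 3 lower and 4 higher after the 3p strand, and 2 to 3 lower and 3 to 9 higher over the other settings. *IMPACT*, an inhibitor of GCN2, rose from 0.13 and 0.24 on the mock arrays to 1.42 after the 3p strand (limma adjusted p of 0.0109), while its 1.04 after the 5p strand did not pass (0.0523). *PPP1R15B*, the constitutive relative of PPP1R15A, rose with a log2 difference of 0.97 and *EIF2S2*, a subunit of eIF2, fell by 0.97 after the 3p strand. The log2 differences of −0.33 for *PPP1R15B* and 0.33 for *EIF2A* after the 5p strand did not pass limma. Of 20 genes for chaperones and the unfolded protein response of the endoplasmic reticulum, 2 rose and 0 fell after the 5p strand, with 12 at an unadjusted p under 0.05, and 11 rose and 4 fell after the 3p strand. Over the other limma settings, 0 to 10 rose and 0 to 2 fell after the 5p strand, and 4 to 13 rose and 2 to 4 fell after the 3p strand, with the fewest risen, 4, under median scaling. *HSPA5*, the main chaperone of that compartment, rose from 1.72 and 1.68 on the mock arrays to 2.79 after the 5p strand and to 3.58 after the 3p strand (limma adjusted p of 0.0475 and 0.00762). *XBP1*, a transcription factor of the same response, fell by 0.95 on the log2 scale after the 3p strand. *DNAJB9* and *DNAJC3*, co-chaperones of HSPA5, rose after the 3p strand with log2 differences of 2.26 and 1.29, and *SYVN1*, a ubiquitin ligase, rose after the 5p strand with 0.89.

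**Figure D4:**
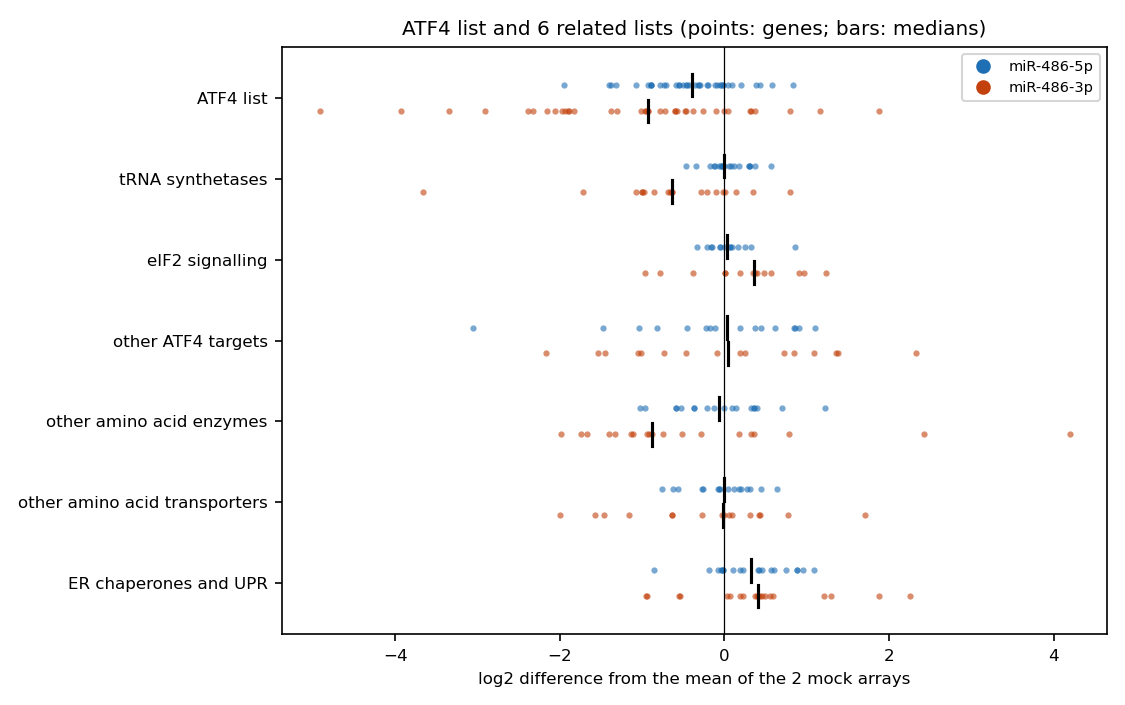
Log2 difference from the mock mean (horizontal axis) for each gene with a value in the ATF4 list and the 6 related lists (vertical axis), after the 5p strand (blue) and the 3p strand (orange); points are genes and black bars list medians. Medians after the 3p strand, with those under median scaling in parentheses, were −0.93 for the ATF4 list (−1.30), −0.64 for the tRNA synthetases (−1.01), 0.36 for eIF2 signalling (−0.013), 0.046 for other ATF4 targets (−0.33), −0.89 for other amino acid enzymes (−1.26), −0.018 for other amino acid transporters (−0.39) and 0.40 for the chaperones and unfolded protein response of the endoplasmic reticulum (0.030).

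With normexp, 9 listed genes instead of 16 were below −0.5 after the 5p strand, beside 1125 of all 16024 genes. *ATF5*, *NUPR1*, *SLC7A6*, *SLC1A4*, *SLC38A1*, *ALDH18A1* and *PCK2* were then within the limit. After the 3p strand, *ATF4*, *CEBPG*, *NUPR1*, *PSPH*, *CTH*, *STC2* and *SLC43A1* were within it. The medians of the list were −0.23 and −0.49 after the 5p and 3p strands. The limma calls after the 5p strand were all lost without a filter on dim probes, where 9219 genes had an unadjusted p under 0.05, and with the authors' log2 values, where 7997 had one.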

How the data were processed

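RNA of 1 *miR-486-5p*, 1 *miR-486-3p* and 2 mock samples was read on 1-color arrays. The authors deposited spot intensity on a linear scale, background-corrected by Agilent Feature Extraction 12.1.1.1 per the file headers. A series table deposited by the authors holds log2 values, normalized in a way not given in the sources used here, with a median of 2.76 in every column. The listed genes and related lists were chosen with earlier results of these data known. Controls and outlier spots (50 to 72 per array) were dropped, and log2 signals were scaled to the 75th percentile (105 for the 5p array, 93.1 for 3p, 114 for each mock array). A probe entered a strand's comparison when called well above background in both mock samples or in the transfected one, and a dim side was set to the lowest signal so called, or kept its own signal where higher. Of 33080 probes with a RefSeq accession, 31104 matched a gene of GRCh38.p14, used for names since the arrays were annotated on another build. limma 3.58.1 (R 4.3.3) was fitted to 33498 probes in 3 groups, because its prior (1.75 degrees of freedom, SD of 0.0893) allows a test with 1 residual degree of freedom. It assumes that transfected arrays vary like mock ones. A run on simulated data gave every array the same noise and so cannot test that assumption. Adjustment was by Benjamini-Hochberg, and 1 called probe sufficed for a gene. No slide effect could be fitted. The mock arrays were not identical (SD of their difference 0.196 over 28246 probes). Python 3.11.15, numpy 2.4.6 and pandas 2.3.3 were used. Named were listed genes with a probe in use and, per related list and strand, the 3 largest differences with all probes above background and outside both mock arrays, except some whose values are not reported here; *MAP1LC3B*, *SQSTM1*, *RARS1*, *SLC6A15* and *XBP1* were named after their values were seen. Alternatives were omission of either mock array, scaling to medians, quantile normalization, normexp, other filters on dim probes, the brightest probe, the authors' values, a limit of 1, an intensity trend and the methods' t-test.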

Additional observations from a re-analysis of the deposited data

How the results depend on the processing

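No paired analysis was possible because each strand has 1 array. The 46 listed values beyond 0.5 in either direction kept their direction under each of 9 settings, and 32 (normexp) to 46 of them stayed past the limit. With each mock array left out in turn, 16 listed genes were lower and 2 higher after *miR-486-5p* (median −0.42 to −0.39). After *miR-486-3p*, 26 were lower and 3 to 4 higher (median −0.97 to −0.87). Over all genes, 2563 to 2642 were then lower and 2262 to 2270 higher after *miR-486-5p*. After *miR-486-3p* these were 4495 to 4502 and 4999 to 5011. With 1 mock array, limma has no residual degree of freedom and gives no value. Median scaling gave 19 lower genes and 1 higher gene after *miR-486-5p*, 29 lower and 2 higher after *miR-486-3p*, and list medians of −0.47 and −1.30. The list median after *miR-486-3p* was −0.84 both with quantile normalization and with the authors' log2 values. With normexp, 9 genes were lower after *miR-486-5p*, beside 1125 of all 16024 genes, and the list medians were −0.23 and −0.49. With a limit of 1, 5 listed genes were lower and 0 higher after *miR-486-5p* and 16 lower and 2 higher after *miR-486-3p*, since fewer genes can pass it. That limit left 739 lower and 406 higher of all 16024 genes after *miR-486-5p*. After *miR-486-3p* it left 2311 lower and 2431 higher of all 16446 genes. Over all genes, after *miR-486-5p* the limma counts were 1109 lower and 596 higher. These counts were 2343 and 1090 with median scaling, 1884 and 1780 with normexp, 3099 and 2678 for probes above background on all 4 arrays, and 4170 and 3699 with an intensity trend. They were 0 and 0 without a filter, where 9219 genes had an unadjusted p under 0.05, and 0 and 0 with the authors' values, where 7997 had one. After *miR-486-3p*, the limma counts were 5261 and 5309, and median scaling gave 7574 lower and 3413 higher. The methods' t-test gave 0 lower and 0 higher after either strand, with 4344 and 7033 genes at an unadjusted p under 0.05. The causes were not tested. Values near background are the least certain.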
